A study of Homo sapiens with 6 samples.

Results

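NF-kappaB subunits and the feedback genes they control were followed at the RNA level in cells labelled H2170, an established line of human lung squamous cell carcinoma, made to express forms of the kinase ACK1. The set holds 10 genes, chosen by symbol. The subunit genes are NFKB1, NFKB2, RELA and RELB, and the IkappaB genes are NFKBIA, NFKBIE and NFKBIZ. The others are the ubiquitin-enzyme genes TNFAIP3 and BIRC3 and the adhesion receptor gene ICAM1. All 10 were found among the 61487 gene rows of the count table, and all 10 were among the 16591 genes that passed the filter on low counts. TNK2 is the gene of ACK1, a cytoplasmic tyrosine kinase, and the study asked which genes are regulated through ACK1 condensates.

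Polyadenylated RNA was sequenced from 6 libraries, 2 in each of 3 groups. The IDRmut group expressed ACK1 with the change called IDRmut, fused to GFP; the WT group expressed wild-type ACK1 fused to GFP; and the Control group expressed GFP alone. GFP was thus common to all groups, and all cells were grown in DMEM with serum. Neither the residues changed in IDRmut nor the promoter of the transgenes, nor whether a group was a clone or a pool of cells, is given in the sources used here. Library totals lay between 19128111 and 33540998 counts, the second WT library being the deepest. Whether replicates were separate cultures is not in the labels, so the p-values rest on a spread between libraries that may be technical.

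TNK2 itself had 1762 and 1455 CPM (counts scaled to a common library size by TMM) in IDRmut, 3514 and 3613 CPM in WT, and 41.1 and 43.1 CPM in Control. Both ACK1 groups therefore stood far above Control, and IDRmut stood below WT by 1.15 ± 0.06 on the log2 scale (edgeR adjusted p 2.8e-10). Each difference between IDRmut and WT given here was measured together with that difference in ACK1 transcript, and the form of ACK1 and its amount cannot be told apart.

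The labelled cell type was checked against marker genes. Squamous markers had summed levels of 1399 to 1527 CPM in IDRmut, 967 to 993 CPM in WT and 1882 to 1886 CPM in Control, most of it from KRT14 and SOX2, both lower in each ACK1 group than in Control. Single markers moved in both directions. Among 8 tested, 5 were higher in IDRmut than in Control (DSG3, KRT5, KRT6A, SFN and TP63) and 2 lower (KRT14 and SOX2). KRT6A was 3.38-fold and KRT5 2.10-fold higher. Relative to Control, 3 were higher in WT (KRT6A, SFN and TP63) and 4 lower (KRT14, KRT17, KRT5 and SOX2). All 8 were higher in IDRmut than in WT. The listed markers DSC3 and PKP1 did not pass the filter, at group means of at most 0.0245 and 0.14 CPM. The 10 epithelial markers summed to 278 to 314 CPM in IDRmut, 295 to 301 CPM in WT and 271 to 281 CPM in Control. Within that nearly level sum, KRT8 was 6.01-fold higher in IDRmut and 2.33-fold higher in WT than in Control, and KRT18 was 4.28-fold higher in IDRmut and 6.56-fold higher in WT. CLDN4 averaged 96.3 CPM in IDRmut, 153 CPM in WT and 130 CPM in Control. KRT19, at a low level, averaged 1.47 CPM in IDRmut, 0.778 CPM in WT and 1.75 CPM in Control. The defining epithelial markers EPCAM and CDH1 were close to 0 in every group, at group means of at most 0.156 and 0.0682 CPM, and ERBB2 averaged 111 CPM in IDRmut, 101 CPM in WT and 129 CPM in Control. H2170 is known as an epithelial line with amplified ERBB2, which the near absence of EPCAM and CDH1 and these ERBB2 levels go against; the identity of the line was not tested. Of the leukocyte markers, CD2, CD3E, MS4A1 and TYROBP had no count in any library, and the sum of all 12 was at most 1.91 CPM. Endothelial and stromal markers summed to 865 to 926 CPM in IDRmut, 685 to 694 CPM in WT and 835 to 854 CPM in Control, nearly all of it from COL1A2, with the other 11 markers each at a group mean of at most 7.50 CPM. The part of these shifts in the results on NF-kappaB genes was not tested.

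NF-kappaB is a family of dimeric transcription factors. In resting cells the dimers are held in the cytoplasm by IkappaB proteins, and signals from TNF, interleukin-1 or Toll-like receptors activate IkappaB kinases that mark the inhibitors for destruction. In an alternative route, the kinase NIK leads to processing of the NFKB2 precursor into its DNA-binding form, which pairs with RelB. Many target genes encode inhibitors of the same pathway, above all IkappaB-alpha and the ubiquitin editor A20, so that transcripts of these genes are often read as a record of pathway activity. Transcript counts do not show where the subunits are in the cell or whether they bind DNA.

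Letters matching the NF-kappaB consensus stood in the promoter windows of NFKBIA, NFKBIZ, TNFAIP3 and BIRC3. Windows from 250 bases before to 50 bases after each annotated start were taken from RefSeq (GRCh38.p14), which gave 13 windows for 8 of the 10 genes; RELB and NFKBIE had no entry. They were searched on both strands for the NF-kappaB consensus decamer, taken as GGGRNWYYCC. Here R is A or G, Y is C or T, W is A or T and N is any base. The consensus was present in 8 of the 13 windows, belonging to 6 of the 8 genes, against 5.91% of all 35116 windows in the table. These genes were chosen as known NF-kappaB targets or subunits, so the share is a description of the set. Shown here are the windows of the 3 genes with a consensus match that differed most between groups or from Control (TNFAIP3, BIRC3 and NFKBIZ), of the textbook feedback gene NFKBIA, and of ICAM1, which had no match; capitals mark consensus matches as they read on the gene's own strand.
TNFAIP3 (chr6:137867009-137867308, plus strand): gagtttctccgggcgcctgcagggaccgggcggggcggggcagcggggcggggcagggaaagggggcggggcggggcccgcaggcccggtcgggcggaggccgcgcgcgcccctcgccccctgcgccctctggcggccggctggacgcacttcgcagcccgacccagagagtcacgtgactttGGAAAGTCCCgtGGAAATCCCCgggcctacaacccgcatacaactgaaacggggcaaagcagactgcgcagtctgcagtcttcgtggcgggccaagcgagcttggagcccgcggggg
BIRC3 (chr11:102317234-102317533, plus strand): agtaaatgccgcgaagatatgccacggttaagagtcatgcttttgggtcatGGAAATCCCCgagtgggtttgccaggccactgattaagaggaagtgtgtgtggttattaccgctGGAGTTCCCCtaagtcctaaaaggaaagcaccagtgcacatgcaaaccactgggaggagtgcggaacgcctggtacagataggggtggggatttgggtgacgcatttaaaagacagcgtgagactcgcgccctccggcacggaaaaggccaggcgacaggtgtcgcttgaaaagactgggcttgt
NFKBIZ (chr3:101827740-101828039, plus strand): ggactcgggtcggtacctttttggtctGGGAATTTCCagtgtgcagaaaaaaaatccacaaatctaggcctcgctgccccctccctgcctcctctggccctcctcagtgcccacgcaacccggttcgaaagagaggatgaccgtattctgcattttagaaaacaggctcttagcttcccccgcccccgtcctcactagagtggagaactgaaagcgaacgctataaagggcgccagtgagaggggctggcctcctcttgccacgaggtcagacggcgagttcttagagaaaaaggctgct
NFKBIA (chr14:35404700-35404999, minus strand): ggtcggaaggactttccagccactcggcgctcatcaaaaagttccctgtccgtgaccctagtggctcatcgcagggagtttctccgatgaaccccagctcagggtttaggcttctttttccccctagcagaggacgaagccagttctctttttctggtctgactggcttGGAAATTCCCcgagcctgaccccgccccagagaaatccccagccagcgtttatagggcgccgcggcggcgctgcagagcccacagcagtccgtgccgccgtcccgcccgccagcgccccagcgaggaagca
ICAM1 (chr19:10270870-10271169, plus strand): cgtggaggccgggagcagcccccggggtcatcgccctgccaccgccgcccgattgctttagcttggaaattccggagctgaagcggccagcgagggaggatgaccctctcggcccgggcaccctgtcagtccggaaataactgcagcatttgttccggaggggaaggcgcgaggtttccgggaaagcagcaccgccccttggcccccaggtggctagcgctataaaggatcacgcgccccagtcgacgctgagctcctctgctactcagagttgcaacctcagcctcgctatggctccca

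The TNFAIP3 window held 2 matches, GGAAAGTCCC and GGAAATCCCC, whose first bases lay 67 and 55 bases before the start. BIRC3 also held 2, GGAAATCCCC at 199 and GGAGTTCCCC at 135 bases before its start. NFKBIA had GGAAATTCCC at 81 bases, and the first NFKBIZ window had GGGAATTTCC at 223 bases before the start. The same letters, GGGAATTTCC, stood 49 bases before the NFKB1 start. The second NFKBIZ window, not shown here, had GGGGTTTCCC at 239 bases before its start. NFKB2 had no match in 1 of its windows, 3 in another and 2 in the last. In the window with 3, the matches starting 107 and 106 bases before the start overlap each other. The windows of RELA and ICAM1 held none, which says only that these letters are not in those windows. The ICAM1 window holds tggaaattcc, which differs from the consensus only in its first base. Looser patterns were not searched, so no match does not mean no NF-kappaB site.

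The classical subunit genes stood at nearly the same level in all 3 groups. NFKB1 encodes p105, the precursor of p50 (chromosome 4, 102501329 to 102617302, GRCh38, plus strand; ENSG00000109320). It had 67.0 and 69.2 CPM in IDRmut, 66.3 and 69.2 CPM in WT and 69.6 and 73.1 CPM in Control. Both ACK1 groups lay just below Control, and no difference passed the test: -0.07 ± 0.05 for IDRmut minus Control and -0.07 ± 0.05 for WT minus Control on the log2 scale (edgeR adjusted p 0.34 and 0.29). The 95% intervals, -0.17 to 0.04 and -0.17 to 0.03, bound how far it could have moved. RELA, the gene of the transactivating subunit p65 (chromosome 11, 65653596 to 65663094, minus strand; ENSG00000173039), had 105 and 98.2 CPM in IDRmut, 98.5 and 95.4 CPM in WT and 95.2 and 102 CPM in Control. Its libraries overlapped in all 3 comparisons, with log2 differences from -0.02 to 0.07 and edgeR adjusted p of at least 0.30.

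NFKB2 and RELB, the pair of the alternative route, were lower in IDRmut than in WT. NFKB2 encodes p100, the precursor of p52 (chromosome 10, 102394110 to 102402529, plus strand; ENSG00000077150). It had 137 and 126 CPM in IDRmut, 148 and 149 CPM in WT and 153 and 146 CPM in Control. IDRmut lay below both other groups without overlap: it fell by 0.17 ± 0.05 relative to WT and by 0.19 ± 0.05 relative to Control on the log2 scale (edgeR adjusted p 0.0082 and 0.0052). Each call was kept under 12 of 13 alternative settings. The call against WT was lost without WT replicate 2, and that against Control without Control replicate 1. Such a fit leaves 1 library in that group, so the loss does not show that the call rests on the library left out. Over the alternatives the log2 differences lay between -0.23 and -0.11 against WT and between -0.25 and -0.13 against Control. RELB (chromosome 19, 45001430 to 45038198, plus strand; ENSG00000104856) had 27.3 and 26.0 CPM in IDRmut, 30.4 and 33.5 CPM in WT and 27.0 and 29.7 CPM in Control. WT was the high group, above both others without overlap, whereas IDRmut and Control overlapped. The IDRmut minus WT difference was -0.27 ± 0.07 (edgeR adjusted p 0.0077; 0.20 without WT replicate 2 and 0.051 by DESeq2), and WT minus Control, at 0.18 ± 0.07, had an adjusted p of 0.054.

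The remaining subunit gene, REL, encoding c-Rel, was called higher in both ACK1 groups at a lower level. It averaged 13.6 ± 0.46 CPM in IDRmut, 14.2 ± 1.4 CPM in WT and 11.1 ± 0.57 CPM in Control (SD, n = 2). Another gene on the same strand covers 43.3% of the REL exon bases. How reads in such shared bases were counted is not stated, so the REL level is uncertain. The log2 differences from Control were 0.30 ± 0.10 in IDRmut and 0.34 ± 0.10 in WT (edgeR adjusted p 0.033 and 0.012). DESeq2 called neither, and the call was lost without either Control library or IDRmut replicate 2 in IDRmut and without Control replicate 2 or WT replicate 1 in WT.

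**Figure D1:**
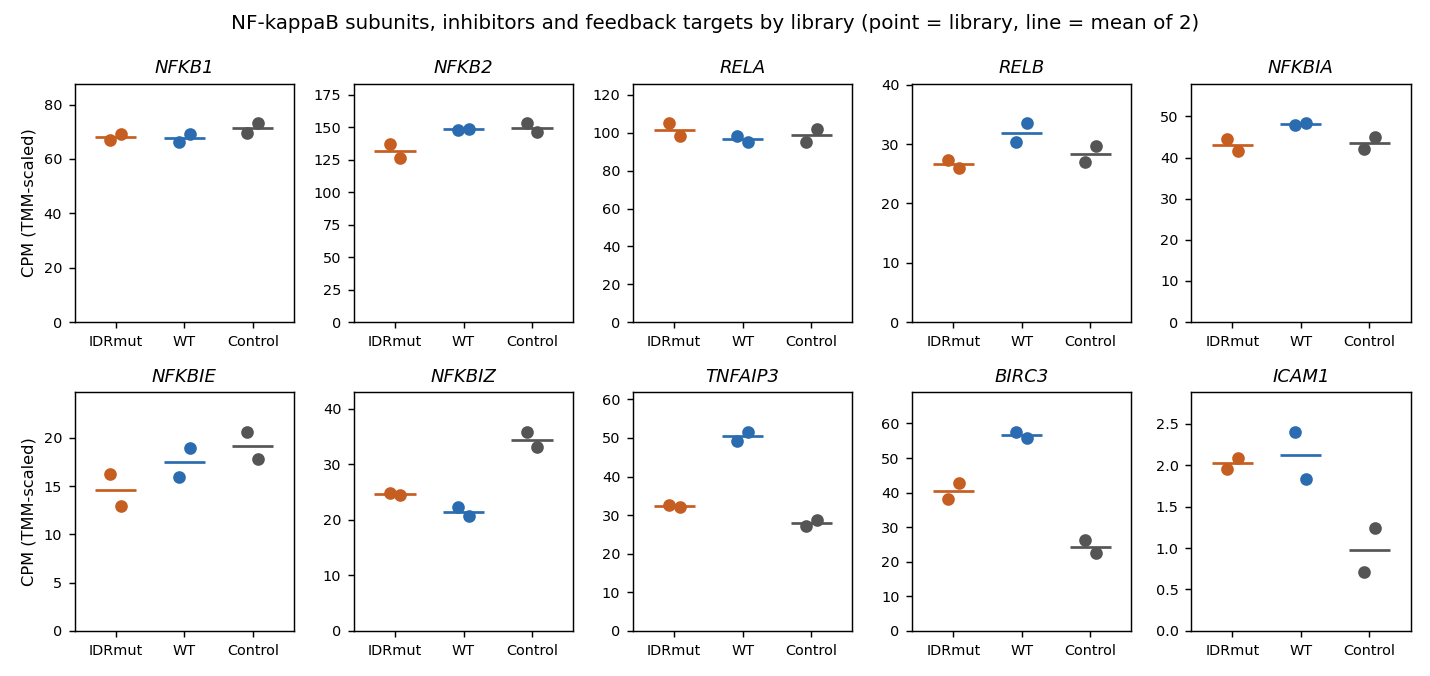
Levels in CPM (vertical axes, starting at 0 and different in each panel) of the 10 genes in the 6 libraries, with IDRmut, WT and Control from left to right; points are libraries and lines the mean of 2. BIRC3 and TNFAIP3 are highest in WT, NFKBIZ is highest in Control, and NFKB1 and RELA stay close to 1 level.

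Among the IkappaB genes, NFKBIZ was lower in both ACK1 groups, NFKBIE was called lower in IDRmut, and NFKBIA differed by little. NFKBIZ encodes IkappaB-zeta, a nuclear protein that binds NF-kappaB on DNA and helps switch on secondary response genes (chromosome 3, 101827991 to 101861022, plus strand; ENSG00000144802). It had 24.9 and 24.4 CPM in IDRmut, 22.3 and 20.7 CPM in WT and 35.8 and 33.1 CPM in Control, so that every ACK1 library lay below both Control libraries. It fell by 0.48 ± 0.07 in IDRmut and by 0.69 ± 0.07 in WT on the log2 scale relative to Control (edgeR adjusted p 4.3e-05 and 5.4e-07). In bulk RNA, fewer cells with the transcript and less transcript per cell cannot be told apart. The difference between the ACK1 groups, 0.20 ± 0.07 for IDRmut minus WT, had an edgeR adjusted p of 0.045 and missed the threshold under 10 of 13 alternative settings, including the replicate block (0.057).

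NFKBIA encodes IkappaB-alpha, the rapid inhibitor that resets the pathway after a signal (chromosome 14, 35401511 to 35404749, minus strand; ENSG00000100906). It had 44.4 and 41.5 CPM in IDRmut, 48.0 and 48.3 CPM in WT and 42.0 and 45.0 CPM in Control. WT was above the other groups, which overlapped each other. Its IDRmut minus WT difference of -0.17 ± 0.06 had an edgeR adjusted p of 0.038 and did not pass under 8 of 13 alternative settings, including the replicate block (0.062); WT minus Control was 0.15 ± 0.06 with an adjusted p of 0.056. NFKBIE, encoding IkappaB-epsilon (chromosome 6, 44258166 to 44265788, minus strand; ENSG00000146232), had 16.3 and 12.9 CPM in IDRmut, 16.0 and 19.0 CPM in WT and 20.6 and 17.8 CPM in Control. Replicates differed more here than for the other IkappaB genes, and WT overlapped both groups. IDRmut lay below Control, with IDRmut minus Control at -0.40 ± 0.12 (edgeR adjusted p 0.013). That call was lost under 2 of 13 alternative settings. Without IDRmut replicate 2 the value was -0.24, and without Control replicate 1 it was -0.29.

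Of the 3 IkappaB genes outside the set, BCL3 and NFKBIB were called. BCL3, a nuclear IkappaB that joins p50 and p52 dimers, averaged 44.7 ± 0.62 CPM in IDRmut, 25.8 ± 0.18 CPM in WT and 51.8 ± 0.073 CPM in Control (SD, n = 2). It fell in WT by 1.00 ± 0.06 and in IDRmut by 0.21 ± 0.05 on the log2 scale (edgeR adjusted p 3.1e-10 and 0.0057); DESeq2 did not call the difference in IDRmut. The WT level was the lowest, as for NFKBIZ, and the BCL3 difference of 0.79 ± 0.06 for IDRmut minus WT had an adjusted p of 1.7e-08. NFKBIB, encoding IkappaB-beta, went the other way, with 22.1 ± 1.2 CPM in IDRmut, 28.6 ± 1.8 CPM in WT and 23.1 ± 0.92 CPM in Control (SD, n = 2) and an adjusted p of 0.0041 for WT minus Control by edgeR, a call lost without Control replicate 1.

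The 2 feedback genes that encode ubiquitin enzymes had WT highest, IDRmut between and Control lowest, with IDRmut close to Control for TNFAIP3. BIRC3 encodes cIAP2, a ubiquitin ligase recruited to TNF receptors that also takes part in the turnover of NIK (chromosome 11, 102317450 to 102339403, plus strand; ENSG00000023445). It had 38.2 and 42.9 CPM in IDRmut, 57.5 and 55.9 CPM in WT and 26.2 and 22.6 CPM in Control. No 2 groups overlapped. BIRC3 was 1.66-fold higher in IDRmut and 2.31-fold higher in WT than in Control, log2 differences of 0.73 ± 0.08 and 1.21 ± 0.07 (edgeR adjusted p 1.2e-06 and 7.3e-10). It was 0.718 of the WT level in IDRmut, a log2 difference of -0.48 ± 0.06 (adjusted p 3.2e-05). These 3 calls held under each of the 13 alternative settings, with WT minus Control between 1.11 and 1.32.

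TNFAIP3 encodes A20, which removes and adds ubiquitin chains on signalling proteins such as RIPK1 and thereby ends NF-kappaB signalling (chromosome 6, 137867188 to 137883312, plus strand; ENSG00000118503). It had 32.6 and 32.2 CPM in IDRmut, 49.3 and 51.5 CPM in WT and 27.3 and 28.8 CPM in Control. Replicates lay close together and the groups did not overlap. TNFAIP3 was 1.80-fold higher in WT than in Control (0.85 ± 0.06 on the log2 scale, edgeR adjusted p 5.1e-09) and IDRmut had 0.641 of the WT level (-0.64 ± 0.06, adjusted p 2.3e-07). IDRmut minus Control was small, 0.21 ± 0.06 with an adjusted p of 0.020, and was not called without Control replicate 1 (0.18) or by DESeq2 (0.12). The antisense gene WAKMAR2 shares 1.88% of the TNFAIP3 exon bases and had 7 to 41 counts per library, against 536 to 1761 for TNFAIP3.

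BIRC2, the neighbour and paralogue of BIRC3 that encodes cIAP1, showed the same order at a higher level. It averaged 86.9 ± 3.3 CPM in IDRmut, 114 ± 3.3 CPM in WT and 78.8 ± 1.2 CPM in Control (SD, n = 2). WT minus Control was 0.53 ± 0.05, IDRmut minus Control 0.14 ± 0.05 and IDRmut minus WT -0.39 ± 0.04 (edgeR adjusted p 9.7e-08, 0.033 and 5.7e-06); the IDRmut minus Control call was lost by DESeq2, with the replicate block, with only the compared groups in the fit, and on leaving out any library but IDRmut replicate 1. The counting of reads that match both paralogues is not stated, so the split of such reads between BIRC2 and BIRC3 is uncertain.

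ICAM1 encodes the receptor through which leukocyte integrins bind (chromosome 19, 10270835 to 10286615, plus strand; ENSG00000090339), and it had the fewest counts of the 10 genes. It had 40 and 46 counts in IDRmut, 49 and 63 in WT and 14 and 23 in Control, or 1.96 and 2.09 CPM in IDRmut, 2.40 and 1.84 CPM in WT and 0.710 and 1.24 CPM in Control. Both ACK1 groups lay above Control and overlapped each other. ICAM1 was 2.09-fold higher in IDRmut and 2.13-fold higher in WT, log2 differences of 1.07 ± 0.29 and 1.09 ± 0.28 (edgeR adjusted p 0.0090 and 0.0051). Without Control replicate 1, the lower of the Control libraries, the differences were 0.71 and 0.74 with adjusted p of 0.15 and 0.11, and DESeq2 gave an adjusted p of 0.066 for IDRmut. IDRmut minus WT was -0.03, with a 95% interval from -0.51 to 0.46. Genes on the opposite strand cover 23.6% of its exon bases, but those 2 genes had at most 1 count in any library.

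**Figure D2:**
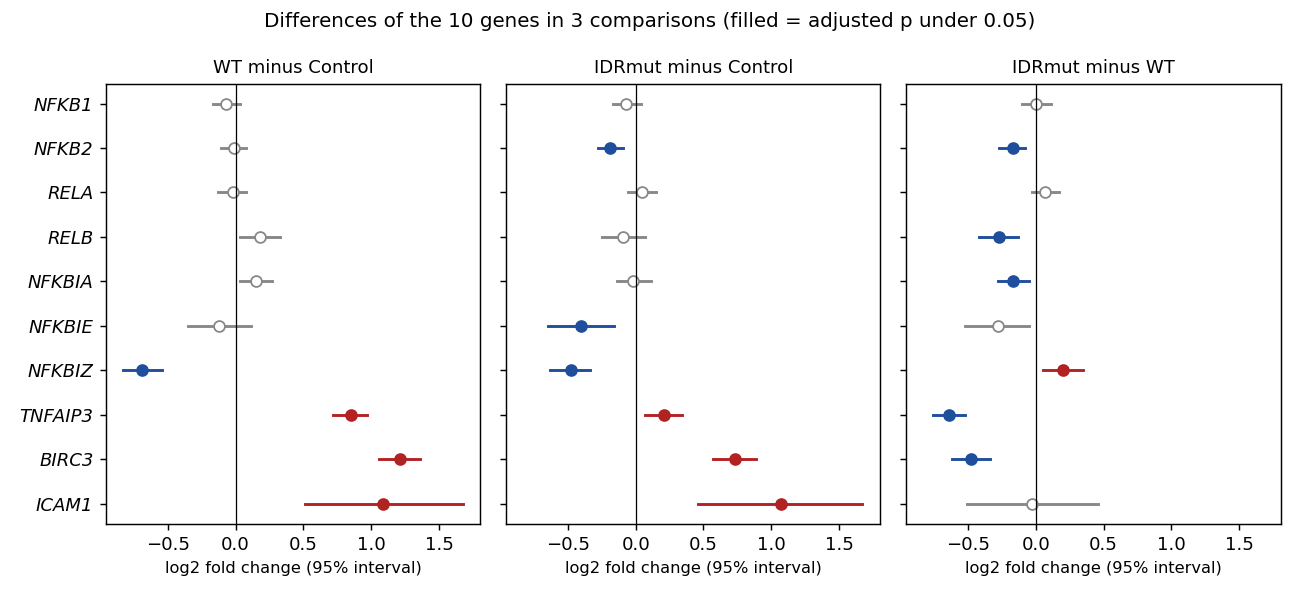
Log2 fold changes (horizontal axis) of the 10 genes in the 3 comparisons, with 95% intervals; filled red points were called higher, filled blue points lower, and open grey points were not called. BIRC3 and TNFAIP3 lie to the right of 0 against Control and to the left for IDRmut minus WT, while NFKBIZ does the reverse.

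Counted over the set, WT minus Control gave 4 of 10 genes called, 3 higher (BIRC3, ICAM1 and TNFAIP3) and 1 lower (NFKBIZ), against 35.0% of the 16591 genes tested (17.4% higher and 17.6% lower). That share is near the background, so the number of calls says nothing particular about these genes; the median log2 difference was 0.07, against 0.002 over all genes. IDRmut minus Control gave 6 of 10, with the same 3 higher and NFKB2, NFKBIE and NFKBIZ lower, against 31.6% of all genes (15.6% higher and 15.9% lower), and 2 of 10 without Control replicate 1. The median there was -0.04, against 0.004 over all genes. IDRmut minus WT gave 6 of 10, NFKBIZ higher and BIRC3, NFKB2, NFKBIA, RELB and TNFAIP3 lower, against 26.5% of all genes, of which 12.3% were higher and 14.2% lower. The median was -0.17, against -0.001 over all genes, and DESeq2 called 3 of 10, BIRC3, NFKB2 and TNFAIP3, whereas 2 of 10 were called without WT replicate 2. The comparisons with Control share the Control libraries, so the 3 genes higher in both are not independent observations. Libraries did not overlap for 7, 7 and 6 of the 10 genes in WT minus Control, IDRmut minus Control and IDRmut minus WT, against 69.2%, 63.3% and 61.5% of all genes.

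On a scale per length of exon, NFKB2 was the most abundant of the 10 transcripts in each group, at 29.4 ± 1.8 CPM per kb in IDRmut, 33.1 ± 0.17 in WT and 33.4 ± 1.1 in Control (SD, n = 2). NFKBIA and RELA followed, at 18.1 and 18.6 CPM per kb in IDRmut, 20.3 and 17.7 in WT and 18.3 and 18.0 in Control; their libraries overlapped in IDRmut and in Control. NFKB1 came next, with 10.8 to 11.4 CPM per kb across the groups. TNFAIP3 reached 9.98 ± 0.31 CPM per kb in WT, where it overlapped RELB at 10.5 ± 0.73, and had 6.41 ± 0.049 in IDRmut and 5.56 ± 0.22 in Control, where it overlapped NFKBIZ at 5.84 ± 0.33. BIRC3 ranked above NFKBIE and NFKBIZ in WT at 7.54 ± 0.15 CPM per kb and below both in Control at 3.25 ± 0.34, and ICAM1 was last in every group, at 0.547 in IDRmut, 0.572 in WT and 0.263 in Control. Lengths were those of all annotated exons joined, which overstates the length of genes with many rare isoforms.

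The rest of the pathway was listed by role, 115 genes outside the set, of which 83 passed the filter. Some did so only through libraries where they are high, so the shares called below are descriptions and support no excess over all genes. Of the 83, 25 rose and 14 fell in IDRmut, which is 47.0% called against 31.6% of all genes, and 34 rose and 12 fell in WT, 55.4% against 35.0%, each relative to Control. In IDRmut minus WT 14 were higher and 26 lower, 48.2% against 26.5%; the total of 40 was 26 by DESeq2 and 25 without WT replicate 2. Among the ligands, TNF, LTA, LTB, IL1A and IL1B did not pass, with at most 12 counts in any library. TNFSF10, encoding the death ligand TRAIL, had the highest mean in IDRmut, 14.7 CPM, with 6.98 CPM in WT and 3.83 CPM in Control, and all 3 comparisons were called (edgeR adjusted p 6.1e-09 for IDRmut minus Control and 0.00014 for WT minus Control). TNFSF4, encoding OX40 ligand, was lowest in IDRmut at 9.20 CPM, against 20.9 CPM in WT and 14.2 CPM in Control, and the log2 difference of IDRmut minus WT was -1.18 ± 0.09. IL18, a cytokine of the interleukin-1 family, was lower in WT, at 129 CPM, than in Control, at 154 CPM (-0.25 ± 0.05).

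Of 20 receptor genes, 13 were tested. Against Control, 5 rose and 2 fell in IDRmut, and 5 rose and 2 fell in WT. That is 53.8% called in each, against 31.6% of all genes in IDRmut and 35.0% in WT. Fewer receptor genes were called in WT without WT replicate 2. LTBR, the lymphotoxin-beta receptor that feeds the alternative route, rose to 32.1 CPM in IDRmut and 34.5 CPM in WT, against 19.0 CPM in Control, log2 differences of 0.76 ± 0.07 and 0.86 ± 0.07. IL1RAP, the shared chain of interleukin-1 receptors, had 506 CPM in IDRmut, 249 CPM in WT and 515 CPM in Control. It was therefore lower in WT alone, with IDRmut minus WT at 1.02 ± 0.04 (edgeR adjusted p 3.9e-12) and IDRmut minus Control at -0.02 ± 0.04 (0.65). IL1R1, the signalling receptor that pairs with it, was higher in IDRmut at 5.63 CPM, against 2.56 CPM in WT and 1.90 CPM in Control. TLR4, the lipopolysaccharide receptor, fell by 0.66 in IDRmut and by 0.22 in WT on the log2 scale relative to Control. TLR6 rose from a low level, by 1.17 ± 0.27 in IDRmut and 1.48 ± 0.25 in WT.

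Of 25 kinase and adaptor genes, all of them tested, 3 rose and 4 fell in IDRmut and 8 rose and 4 fell in WT, each against Control. These are 28.0% called in IDRmut, against 31.6% of all genes, and 48.0% in WT, against 35.0%. Without Control replicate 1 the IDRmut calls numbered 4 in place of 7. TRAF1, an adaptor that partners cIAP proteins and stands on the target list too, had 7.02 and 6.69 CPM in IDRmut, 8.77 and 8.04 CPM in WT and 3.20 and 3.98 CPM in Control. The ACK1 libraries were all above Control, by 0.94 ± 0.14 in IDRmut and 1.22 ± 0.14 in WT on the log2 scale (edgeR adjusted p 9.1e-05 and 1.8e-06). MAP3K14, the gene of NIK, fell by 0.49 ± 0.05 in WT and by 0.16 ± 0.05 in IDRmut, and IKBKB, encoding the IkappaB kinase beta, by 0.37 in WT and 0.26 in IDRmut. IRAK1 and MYD88, which carry interleukin-1 and Toll-like receptor signals, rose in WT by 0.39 ± 0.04 and 0.45 ± 0.05. Both were lower in IDRmut than in WT, with IDRmut minus WT at -0.43 ± 0.04 and -0.38 ± 0.05. CARD10, a scaffold of the BCL10 and MALT1 complex, fell in IDRmut by 0.38 ± 0.09.

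Of the other feedback regulators 33.3% were called in each comparison, against 31.6% of all genes in IDRmut minus Control, 35.0% in WT minus Control and 26.5% in IDRmut minus WT. Of 12 tested, 2 rose (BIRC2 and ZC3H12A) and 2 fell (OTULIN and TAX1BP1) in WT, while 1 rose (BIRC2) and 3 fell (CYLD, OTULIN and TNIP1) in IDRmut, each against Control. DESeq2 called 1 of the 12 in WT and 3 in IDRmut, and without Control replicate 1 the calls numbered 1 in WT and 2 in IDRmut. CYLD, a deubiquitinase, fell by 0.25 ± 0.05 in IDRmut, TNIP1, an A20-binding protein, by 0.20 ± 0.05 and the linear-chain deubiquitinase OTULIN by 0.19 ± 0.04. In IDRmut minus WT, the 4 genes called were lower (BIRC2, CYLD, RNF11 and TNIP1), 2 of them without WT replicate 2; TNIP1 differed by -0.26 ± 0.05.

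Target genes outside the set held the widest differences, and many were at low counts. Of 39 listed, 26 were tested, and the 13 that did not pass, among them CXCL1, PTGS2 and MMP9, had group means of at most 0.445 CPM. In IDRmut minus Control 15 rose and 3 fell, and in WT minus Control 16 rose and 2 fell. Against 31.6% and 35.0% of all genes, 69.2% of the tested targets were called in each. Several, among them VCAM1, CFB and C3, had under 10 counts in each Control library and passed the filter through the ACK1 libraries, so that these counts do not support a rise of the list. Among the genes named by level and rank, the neutrophil chemoattractant CXCL8 had 2.55 and 2.32 CPM in IDRmut, 17.6 and 17.1 CPM in WT and 2.18 and 1.29 CPM in Control. It was high in WT alone: IDRmut minus WT was -2.83 ± 0.14 (edgeR adjusted p 1.7e-10) and IDRmut minus Control 0.48 ± 0.23 (0.13).

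PLAU, encoding urokinase, was higher in both ACK1 groups, with 215 CPM in IDRmut, 244 CPM in WT and 149 CPM in Control. CCL2, a monocyte chemoattractant, was high in IDRmut, with 97.6 CPM, against 52.5 CPM in WT and 61.3 CPM in Control; it rose by 0.67 ± 0.05 in IDRmut and fell by 0.22 in WT. GADD45B, a stress-induced target, had 37.6 CPM in IDRmut, 56.4 CPM in WT and 33.6 CPM in Control, and IDRmut minus WT was -0.58 ± 0.06. CD83, a surface protein, was lowest in WT at 44.9 CPM, with 61.2 CPM in IDRmut and 76.3 CPM in Control. C3, the complement component, had 52 and 66 counts in IDRmut, 59 and 90 in WT and 2 and 5 in Control. In IDRmut minus WT 6 target genes were higher and 12 lower, 69.2% called against 26.5% of all genes. That total of 18 was 10 by DESeq2, and fewer target genes were called without WT replicate 2.

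**Figure D3:**
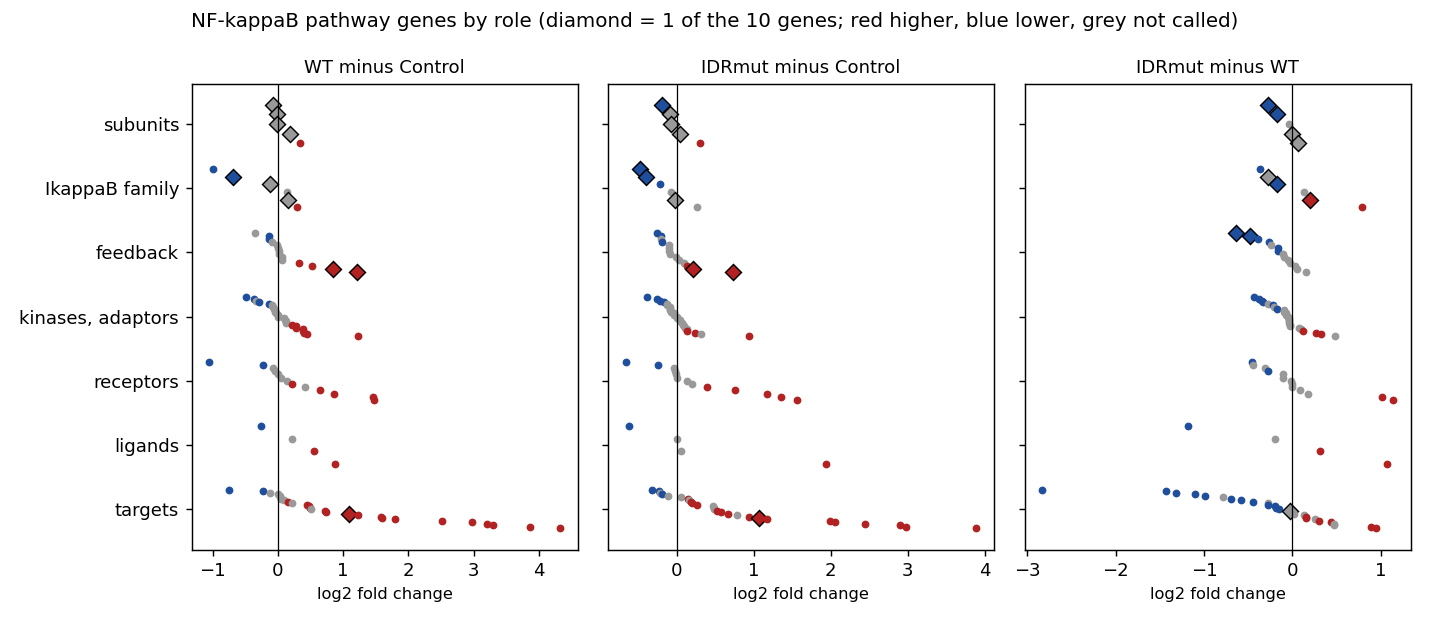
Log2 fold changes (horizontal axis, different in each panel) of the tested NF-kappaB pathway genes grouped by role; diamonds are the 10 genes of the set, dots other genes, red called higher, blue lower and grey not called. Subunits lie between -0.27 and 0.34. The widest spread is among the targets, from CXCL8 at -2.83 for IDRmut minus WT to IL32 at 4.32 for WT minus Control. IL32 had 1 count in each Control library.

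The 3 genes of the set with the widest range of group means were BIRC3, ICAM1 and TNFAIP3, at 1.22, 1.09 and 0.84 log2 units. For each, the genes with the most similar pattern were sought by Euclidean distance of centred log2 CPM over the 6 libraries among genes averaging 5 CPM or more. BIRC3 lay nearest to CITED2, PARP14 and ETS2, at distances of 0.17, 0.19 and 0.21, against a median of 1.29 over 10907 genes. CITED2, for example, had 24.1 CPM in IDRmut, 35.1 CPM in WT and 14.8 CPM in Control. PDLIM7 and KLF6 were among the genes nearest to TNFAIP3, at 0.08 and 0.12, against a median of 0.93. ICAM1, with its larger counting error, lay nearest to SLC6A9, TSPAN15 and TRAF1, at 0.35, 0.43 and 0.43, against a median of 1.40. With 2 libraries in each of 3 groups, many genes were compared over few points, so closeness here describes these libraries alone.

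**Figure D4:**
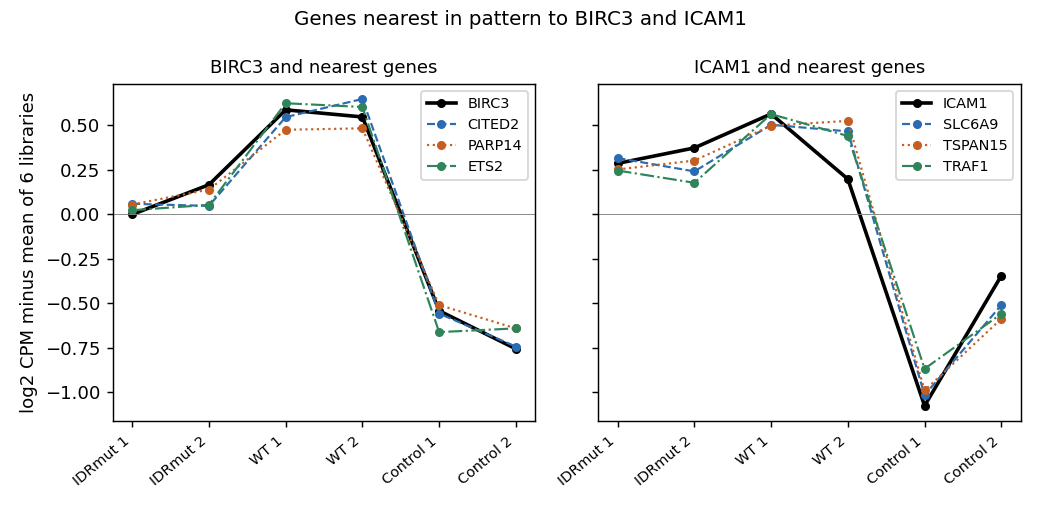
Log2 CPM minus the mean of the 6 libraries (vertical axis) for BIRC3 and ICAM1 (black) and the 3 genes nearest to each, in the IDRmut, WT and Control libraries from left to right. BIRC3 and its neighbours peak in both WT libraries, and ICAM1 and its neighbours are lowest in Control replicate 1.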

How the data were processed

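RNA of 6 libraries of H2170 cells was analysed, 2 per group. The authors deposited raw counts per gene, not normalized; HISAT2 2.2.1, SAMtools 1.14, featureCounts 2.0.1 and build GRCh38 are named in the submitters' processing notes. No source used here states the annotation release, the strand setting or how multiply matching reads were counted.

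Symbols were assigned to 61369 of 61487 IDs from a current table and to 105 more from GENCODE release 29, which also gave coordinates, exon lengths and overlaps on GRCh38. Genes were filtered with filterByExpr (minimum count 10, minimum total 15), leaving 16591 genes with at least 99.85% of each library's counts. They were fitted with edgeR 4.0.16 (R 4.3.3, TMM scaling, all 6 libraries in 1 fit, quasi-likelihood test), and p-values were adjusted by Benjamini-Hochberg over all genes tested; calls were made at adjusted values under 0.05. Differences are log2 fold changes ± SE, with 95% intervals (residual degrees of freedom 3, prior 13.5). Levels are given as CPM. The procedure was tested on simulated counts. These were drawn with the same spread for all genes and groups, so they do not test calls at the wider spread of the IDRmut replicates.

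Replicates differed by more than counting error (chi-square per gene 3.65 in IDRmut, 1.55 in WT and 1.68 in Control). The labels do not say that a replicate number marks a batch shared between groups. Members, gene lists and tests were chosen with earlier results of these data known. Named beside the members were TNK2, REL, NFKBIB, BCL3, BIRC2, up to 3 called genes per list and comparison with the smallest adjusted p and a mean of at least 1 CPM, genes of counts of 5 or fewer, and the 3 nearest patterns, of which 1 gene is not reported here. The cell type markers given singly, VCAM1, CFB, IL32 and the untested ligands and targets were named after their values were seen. Alternatives were upper-quartile and RLE scaling, no filter, DESeq2 1.42.0, only the compared groups, a replicate block, a correction for GC content and length, and each library left out.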

Additional observations from a re-analysis of the deposited data

How the results depend on the processing

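Of the 16 differences of the 10 genes that were called, 7 were called in the same direction under all 13 alternatives: BIRC3 in all 3 comparisons, TNFAIP3 in WT minus Control and IDRmut minus WT, and NFKBIZ in both comparisons with Control. No called difference changed sign. Of the 14 not called, 6 changed sign, with values from -0.03 to 0.05 as first fitted, and 3 became called under some alternatives: RELB in WT minus Control under 6 (lowest adjusted p 0.016), NFKBIA in WT minus Control under 4 (0.016) and NFKBIE in IDRmut minus WT under 4 (0.0017). With upper-quartile scaling NFKB2 in WT minus Control was 0.02, RELA 0.01, and NFKBIA in IDRmut minus Control 0.01; corrected for GC content and length, NFKB2 in WT minus Control was 0.00 and NFKB1 in IDRmut minus WT -0.00, as it was without a filter. Leaving out 1 library at a time gave, for NFKB2 and RELA in WT minus Control, -0.05 to 0.02 and -0.07 to 0.02; for RELA and NFKBIA in IDRmut minus Control, -0.00 to 0.10 and -0.07 to 0.03; and for NFKB1 and ICAM1 in IDRmut minus WT, -0.03 to 0.04 and -0.24 to 0.14. The cause was not tested.

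DESeq2 called 3649 genes in WT minus Control, 3290 in IDRmut minus Control and 2534 in IDRmut minus WT, against 5807, 5237 and 4396 by edgeR, and each was also an edgeR call; of the 10 genes it called 3 in IDRmut minus WT. Without 1 library the counts over all genes were 3974 to 7028, 3451 to 5522 and 2590 to 4761, and of the 10 genes 3 to 6, 2 to 6 and 2 to 6 were called. Upper-quartile scaling made 58.6% of the WT minus Control calls and 58.1% of the IDRmut minus Control calls higher, against 49.8% and 49.5%. With the replicate block 5440, 4836 and 3966 genes were called, and of the 10 genes 4, 6 and 4. The correlation of replicate differences between groups was -0.029 to -0.021. With only 2 libraries per group, that value cannot tell whether equal replicate numbers mark a shared batch. ICAM1, at 14 to 63 counts a library, is the gene that depth limits most.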
